A study of Mus musculus with 9 samples.

Results

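The genes described here are 10 that encode secreted matrix-associated proteins: the spondins Spon1 and Spon2, the thrombospondins Thbs1 and Thbs2, the proteases Adamts1, Adamts4 and Adamts9, the CCN proteins Ccn1 and Ccn2, and tenascin C (Tnc). They were chosen by symbol from the 30865 genes of a deposited table of read counts, and each symbol stood on 1 row. Their levels in these same 9 libraries were known when they were chosen, so the differences between groups below describe these libraries and are not independent tests of the 10 genes. All 10 had enough counts to enter the fit, out of 17578 genes tested.

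RNA-seq libraries were made from total RNA of mouse lung in 3 groups of 3. Their treatment labels were normoxia, hypoxia, and knock down Hif-1α after hypoxia. Beyond the word after, the timing of the knockdown relative to the hypoxia is not given. The labels give no strain, age, sex, oxygen level, exposure time, knockdown method or hour of collection. They do not say whether each library came from its own animal, so the spread between libraries may be partly technical. Libraries held 15566485 to 18046442 counts. The sample titles carry the word muscle and the tissue fields say lung. Summed alveolar epithelial markers stood at 21300 to 31280 CPM (read counts scaled to library size, with TMM factors) and 8 summed skeletal muscle markers at 3.40 to 18.6 CPM. Hif1a was at 78.6 to 87.8 CPM for normoxia, 88.6 to 98.3 for hypoxia and 85.0 to 86.4 for the libraries labelled knockdown. Its difference between the last 2 groups was -0.13 on the log2 scale (SE 0.08, edgeR adjusted p = 0.62), so a lower Hif1a transcript was not detected and the third group is called by its label.

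Thrombospondins, CCN proteins, tenascin C and the spondins are matricellular proteins. They sit in the extracellular matrix without being its main structural fibres, and they signal to cells through integrins and other receptors. ADAMTS proteases carry thrombospondin-type repeats, and several of them cut matrix proteoglycans such as versican and aggrecan. In lung and vessel wall several of these genes, among them Thbs1, Ccn1 and Adamts1, are known to be induced quickly by stretch, wounding or growth factors.

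Spon2, Thbs1, Adamts1 and Adamts4 were lower in hypoxia than in normoxia and lower still in the mean of the libraries labelled knockdown. Spon2 went furthest, from 39.8 ± 18.6 CPM in normoxia to 4.04 ± 2.05 CPM under hypoxia and 1.79 ± 0.84 for the knockdown label (SD, n = 3). Of these 4 genes Adamts1 had the smallest SD relative to its mean in each group, at 259 ± 8.5, 142 ± 10.3 and 83.0 ± 14.3 CPM. Ccn1 was lower in all 3 hypoxia libraries. The group means of Spon1, Thbs2 and Ccn2 ranged over 0.22, 0.23 and 0.38 log2 units. In hypoxia against normoxia, 4 of the 10 genes were past the 5% false discovery threshold of the edgeR fit over all genes, each of them lower, where 1.45% of all tested genes were called lower. Between the knockdown label and hypoxia it was Adamts1 alone, where 0.449% of genes were called lower. For the knockdown label against normoxia it was these 4 and Adamts9, where 3.44% were called lower. Counted in either direction, 4.22%, 1.71% and 8.23% of genes were called in the 3 comparisons, and 2.77%, 1.26% and 4.79% were called higher, which no member was. The groups did not overlap for 5 members in hypoxia against normoxia, all lower, where they did not overlap for 22.2% of all genes, 11.6% lower and 10.6% higher. Between the knockdown label and hypoxia this held for 3 members, 2 lower and 1 higher, where it held for 16% of all genes, 7.43% lower and 8.58% higher. Between the knockdown label and normoxia it held for 5 members, all lower, where it held for 28% of all genes, 13.5% lower and 14.5% higher. These comparisons share libraries, and because the genes were chosen with these levels known, nothing is read from the shares.

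**Figure D1:**
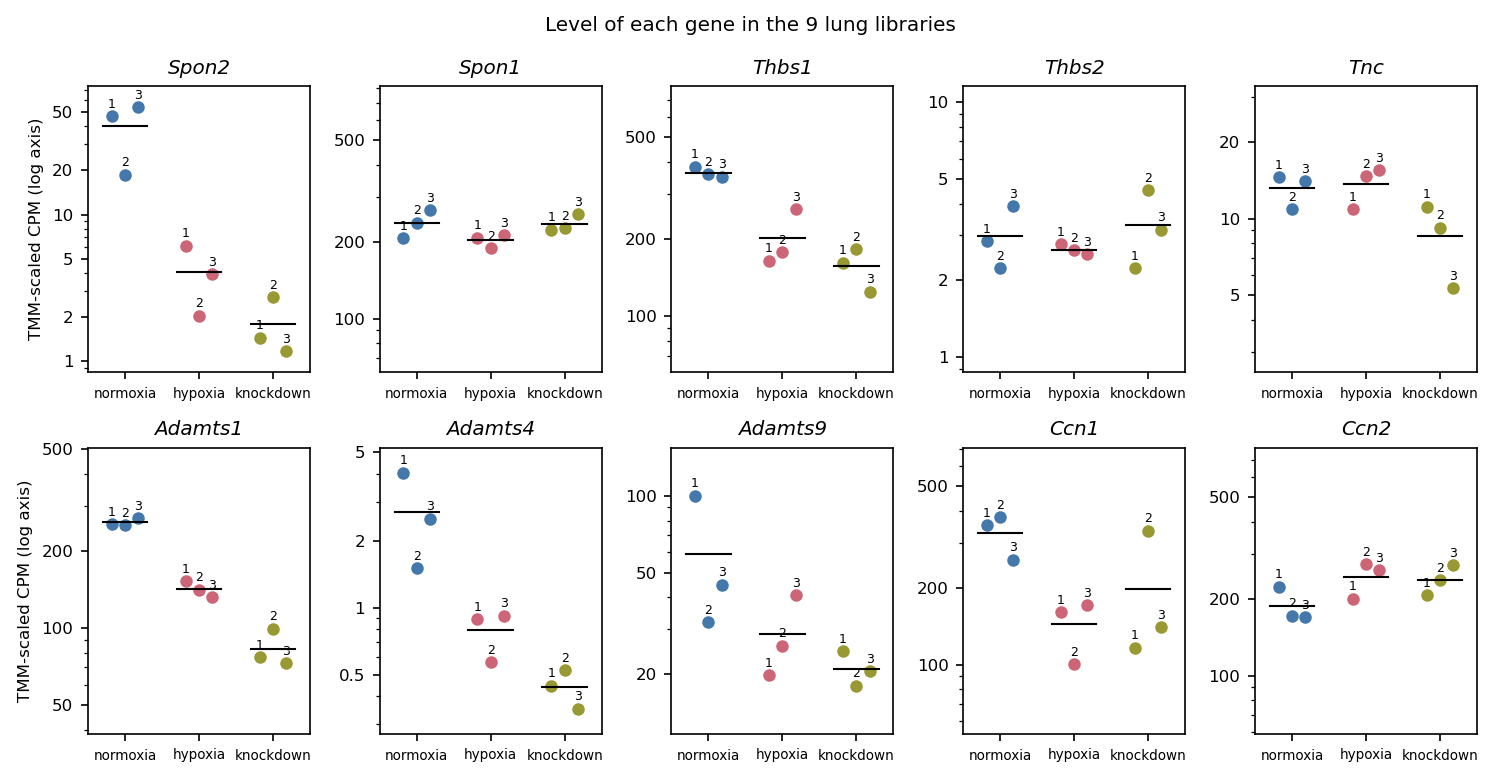
Level of each gene as TMM-scaled CPM on a log axis in the 3 normoxia, 3 hypoxia and 3 knockdown-labelled libraries, with points numbered by replicate and bars at the group mean. Spon2, Thbs1, Adamts1, Adamts4 and Ccn1 have every normoxia library above every hypoxia library. Adamts1 and Adamts4 also have every hypoxia library above every knockdown-labelled one.

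Spon2 encodes spondin 2, also called mindin, a secreted protein known as an integrin ligand for leukocytes and as a binder of bacterial surface molecules. It lies on the minus strand of chromosome 5 at 33198184 to 33218455 (GRCm38; ENSMUSG00000037379). Its level was 46.8, 18.7 and 53.9 CPM in normoxia replicates 1 to 3, 6.15, 2.05 and 3.91 CPM under hypoxia, and 1.45, 2.74 and 1.17 CPM with the knockdown label. The lowest normoxia library, replicate 2, was still above each of the other 6, while hypoxia and knockdown-labelled libraries overlapped. The counts behind these levels were 310 to 898 in normoxia, 36 to 111 in hypoxia and 20 to 42 under the knockdown label. The log2 difference was -3.30 (SE 0.46) for hypoxia against normoxia, a 9.83-fold lower level. It was -4.49 (SE 0.50) for the knockdown label against normoxia and -1.19 (SE 0.52) for the knockdown label against hypoxia. The last of these was short of the threshold, and it moved to -0.76 without hypoxia replicate 1. Spon2 stayed past the threshold against normoxia, for both other groups, in each of the 16 alternative fits.

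In bulk lung RNA, fewer cells of a type and less RNA per cell cannot be told apart. All 12 natural killer and T cell markers tested were higher in hypoxia than in normoxia (edgeR), and their summed level was 65.1 to 80.9 CPM for normoxia, 235 to 688 for hypoxia and 298 to 432 for the knockdown label. Against hypoxia 4 of them fell under the knockdown label, the T cell genes Cd8a (-3.25), Trac (-2.58), Cd3e (-2.58) and Cd3d (-2.20). Of these, Cd3d lost its call without knockdown replicate 1 or 3 (highest edgeR adjusted p = 0.062). Against normoxia 7 rose under the knockdown label, the furthest being Gzma (3.37), Ncr1 (2.75), Nkg7 (2.51) and Prf1 (2.37). Circadian clock genes differed between the same groups as Spon2. Of 17 clock genes, 7 were higher and 4 lower in hypoxia (edgeR), and none passed for the knockdown label against hypoxia. The part of either in the level of Spon2 was not tested.

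The genes whose pattern over the 9 libraries was nearest to that of Spon2 were sought among 14121 genes. Likeness was the root mean square difference between log2(CPM + 0.5) values, each gene centred on its own mean. Npas2 (0.54 log2 units) and Arntl (0.55) were nearest, both encoding partners of the activating arm of the circadian clock. Arntl stood at 43.3, 44.4 and 53.5 CPM in normoxia, 9.14, 3.99 and 4.48 under hypoxia, and 3.41, 4.25 and 4.63 with the knockdown label. Npas2 went from 11.2 to 24.0 CPM in normoxia to 0.80 to 1.5 in hypoxia and 0.76 to 1.37 under the knockdown label. The alpha-globin genes Hba-a2 (0.76) and Hba-a1 (0.84) were also near. The alpha-globin copies are near-identical, so their separate counts are uncertain. By comparison Spon2 itself varied by a root mean square of 1.82 about its mean. Inside normoxia, replicate 2 was the lowest for Spon2 and for Npas2, lay between the others for Arntl and Hba-a1, and was the highest for Hba-a2 at 124 CPM.

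**Figure D2:**
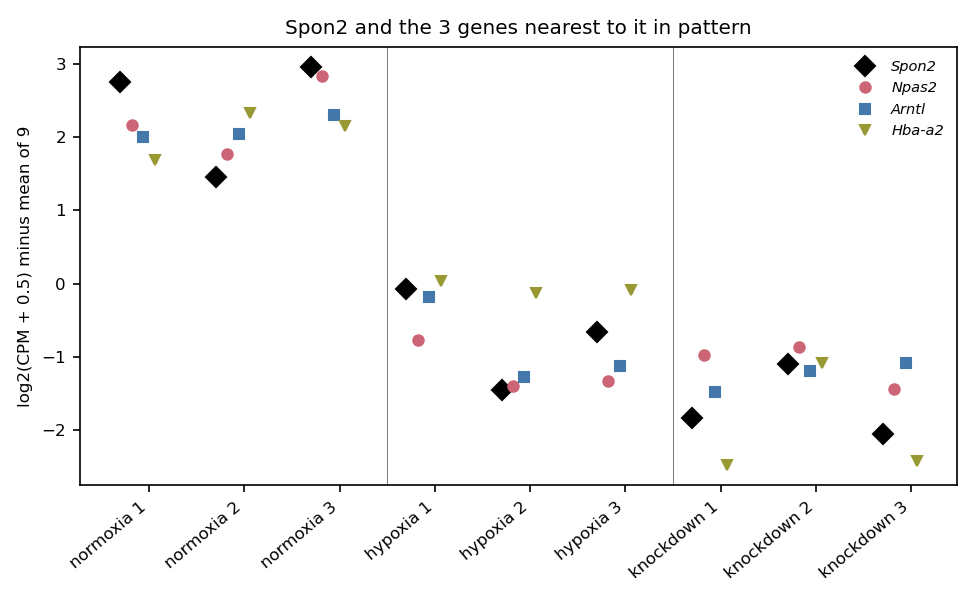
Centred log2(CPM + 0.5) of Spon2 (diamonds) and of its 3 nearest genes in each library, with vertical lines between the groups. All 4 genes are highest in the normoxia libraries, and Hba-a2 lies lower in each knockdown-labelled library than in any hypoxia library, which Npas2 and Arntl do not.

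Spon1 encodes F-spondin, an axon guidance and matrix protein of the same family. Its range was 207 to 265 CPM for normoxia, 189 to 212 for hypoxia and 223 to 256 for the knockdown label, and no comparison was past the threshold. The log2 differences were -0.22 (SE 0.10), 0.21 (SE 0.10) for the knockdown label against hypoxia, and -0.01 (SE 0.10) for the knockdown label against normoxia. Its libraries labelled knockdown all lay above those of hypoxia, but inside the range of normoxia for 3 of 3. The spondins thus differed in range by their group means, 0.22 log2 units for Spon1 and 4.06 for Spon2.

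Thbs1 encodes thrombospondin 1, an inhibitor of vessel growth and an activator of latent TGF-beta that is also stored in platelets. It lies on the plus strand of chromosome 2 at 118111876 to 118127133 (GRCm38). Its level was 384, 359 and 351 CPM in normoxia, 165, 178 and 263 in hypoxia, and 162, 183 and 125 under the knockdown label. Every normoxia library lay above all others, hypoxia replicate 3 was the highest of the remaining 6, and the hypoxia and knockdown-labelled groups overlapped. The log2 difference was -0.85 (SE 0.18) for hypoxia against normoxia, -1.22 (SE 0.18) for the knockdown label against normoxia and -0.37 (SE 0.18) for the knockdown label against hypoxia. For hypoxia the call was lost without any 1 of normoxia replicates 1 (-0.82), 2 (-0.86) and 3 (-0.88) and hypoxia replicates 1 (-0.71) and 2 (-0.77), and with the replicate number as a block (-0.86). Against normoxia the knockdown-labelled difference kept its call in all 16 alternatives.

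Platelet markers moved the same way as Thbs1. Of 9 tested platelet markers all had lower estimates in hypoxia and 3 passed, namely Gp6, Ppbp and Clec1b (edgeR adjusted p = 0.033, 0.043 and 0.046). Those calls held in 3, 1 and 2 of the 9 fits without 1 library, with a highest adjusted p of 0.15, 0.18 and 0.21. The summed level of the 10 platelet markers was 116 to 293 CPM for normoxia, 79.7 to 115 for hypoxia and 82.4 to 117 for the knockdown label. Normoxia replicate 1 had the fewest platelet transcripts of its group and the most Thbs1. The part of platelets in the level of Thbs1 was not tested.

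Thbs2, the other thrombospondin able to block vessel growth, was scarce. It stood at 2.24 to 3.90 CPM in normoxia, 2.53 to 2.77 in hypoxia and 2.23 to 4.51 under the knockdown label, from 37 to 69 counts. Groups overlapped in every comparison, and with a log2 difference of -0.18 and a 95% interval of -0.86 to 0.50 a change of the size seen for Thbs1 in hypoxia lies at the edge of that interval. Tnc, a matrix protein of wound and developing tissue, was at 10.9 to 14.5 CPM in normoxia, 10.9 to 15.5 in hypoxia, and 11.1, 9.21 and 5.33 for replicates 1 to 3 of the knockdown label. The estimates were 0.06 (SE 0.25) for hypoxia against normoxia and -0.67 (SE 0.25) for the knockdown label against hypoxia, neither past the threshold, and the latter was -0.43 without knockdown replicate 3.

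Adamts1 encodes a secreted protease that cuts versican and aggrecan. It lies on the minus strand of chromosome 16 at 85793827 to 85803113 (GRCm38). Its level was 255, 253 and 269 CPM in normoxia, 152, 141 and 132 in hypoxia, and 76.8, 99.4 and 72.8 under the knockdown label. The 3 groups did not overlap at any point, and the spread inside normoxia was 3.29% of the mean. The log2 difference was -0.87 (SE 0.11) for hypoxia against normoxia, -0.77 (SE 0.11) for the knockdown label against hypoxia and -1.64 (SE 0.12) for the knockdown label against normoxia. It was the 1 gene of the 10 past the threshold in all 3 comparisons, and it stayed so in each of the 16 alternatives, with differences of -0.91 to -0.82, -0.93 to -0.69 and -1.80 to -1.56.

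Adamts4 encodes an aggrecanase and was near the limit of these libraries, with 25 to 64 counts in normoxia, 10 to 16 in hypoxia and 6 to 8 under the knockdown label. Its gene lies on the plus strand of chromosome 1 at 171250421 to 171260637 (GRCm38). The levels were 4.05, 1.51 and 2.52 CPM, then 0.89, 0.57 and 0.92, and then 0.45, 0.52 and 0.35. As for Adamts1, the 3 groups did not overlap, but the SD inside normoxia was 47.4% of the mean. The log2 difference was -1.75 (SE 0.42) for hypoxia and -2.60 (SE 0.45) for the knockdown label, both against normoxia, and -0.84 (SE 0.47) for the knockdown label against hypoxia, which was not past the threshold. The hypoxia call was lost without any 1 library other than normoxia replicate 2, at -1.34 without normoxia replicate 1, -1.79 without normoxia replicate 3, -1.83, -1.56 and -1.87 without hypoxia replicates 1 to 3 and -1.75 without any of the knockdown-labelled replicates. It was also lost with limma-voom (-1.64), with only the 6 libraries of the comparison (-1.74) and with the replicate block (-1.70). The call of the knockdown label against normoxia held in all 16 alternatives.

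Adamts9 encodes another versican-cutting protease active in vessels. Its gene spans 92772699 to 92943492 on the minus strand of chromosome 6 (GRCm38). Its level was 100.2, 32.0 and 44.9 CPM in normoxia, 19.9, 25.9 and 40.9 in hypoxia, and 24.6, 18.03 and 20.6 under the knockdown label. Normoxia replicate 1 was higher than any other library, hypoxia replicate 3 lay inside the normoxia range, and every knockdown-labelled library lay below every normoxia library. The difference of -1.03 (SE 0.38) for hypoxia was not past the threshold and was -0.41 without normoxia replicate 1. It passed only in the fit with no low-count filter among the 16 alternatives, at the same -1.03. For the knockdown label against normoxia it was -1.48 (SE 0.38) and past the threshold. That call was lost without normoxia replicate 1 (-0.87), without normoxia replicate 3 (-1.65) or without knockdown replicates 1 (-1.61), 2 (-1.39) or 3 (-1.47), with limma-voom (-1.31) and with the replicate block (-1.40).

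The genes nearest in pattern to Adamts4 were Dusp8 (0.22 log2 units), a MAP kinase phosphatase, and then its relatives Adamts15 (0.24) and Adamts17 (0.27), followed by Cpa3 (0.29), a mast cell protease, and Apold1 (0.31), an endothelial gene. Adamts4 itself varied by 0.78. In the hypoxia and knockdown-labelled libraries it stood at 0.35 to 0.92 CPM, where the added 0.5 CPM narrows differences on this scale. The group means of Adamts4 ranged over 1.69 log2 units on it, against a fitted difference of -2.60 for the knockdown label against normoxia. Nearness of a gene to Adamts4 thus does not mean an equal fold change. Nearest to Adamts1 were Vipr2 (0.19), a receptor for vasoactive intestinal peptide, Cpa3 (0.20), the glutamate receptor subunit gene Grik2 (0.21), Dusp8 (0.22) and Leo1 (0.22), a subunit of an elongation complex, against 0.69 for Adamts1 itself. Among the 10 genes the closest pairs that moved were Thbs1 with Adamts1 (0.31), Adamts1 with Adamts4 (0.35), Adamts4 with Adamts9 (0.36) and Thbs1 with Adamts4 (0.37). Spon2 stood 1.09 to 2.00 log2 units from each of the other 9, since its range was far wider.

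**Figure D3:**
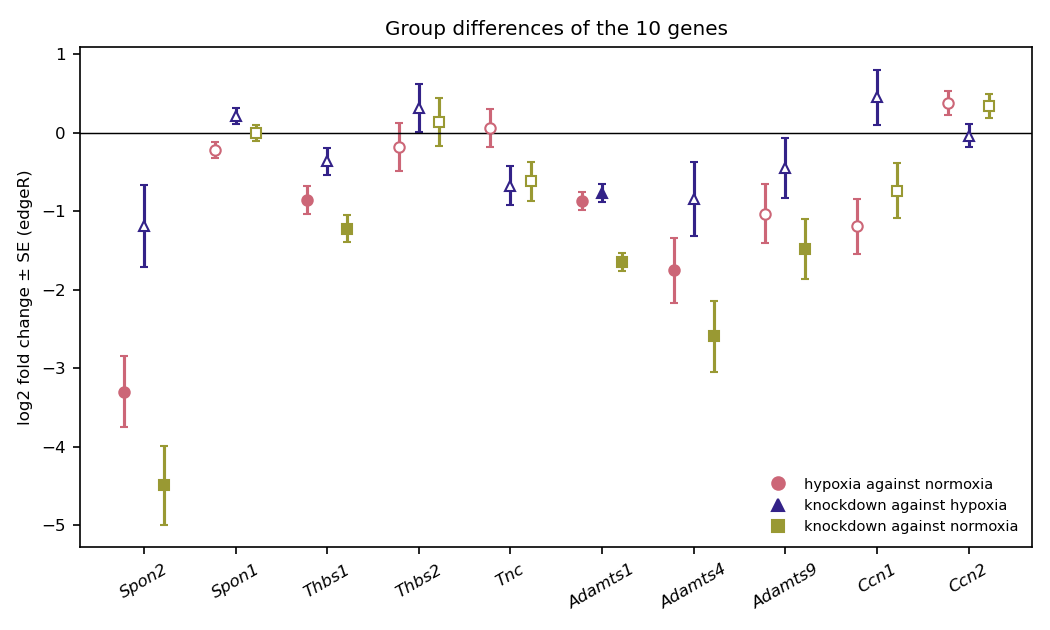
Log2 fold change with its standard error from the edgeR fit for the 10 genes in 3 comparisons, where filled symbols are past the 5% false discovery threshold and open symbols are not. Adamts1 is filled in all 3 comparisons, and Spon2, Thbs1 and Adamts4 are filled in both comparisons with normoxia.

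Ccn1 encodes a cysteine-rich protein of angiogenesis and wound repair that is made soon after a stimulus. It lies on the minus strand of chromosome 3 at 145646976 to 145649981 (GRCm38). Its level was 351, 379 and 258 CPM in normoxia, 161, 100.2 and 171 in hypoxia, and 117, 334 and 140 under the knockdown label. All hypoxia libraries lay below normoxia, and of the knockdown-labelled ones replicate 2 lay inside the normoxia range while replicates 1 and 3 lay inside that of hypoxia. The log2 difference was -1.19 (SE 0.35) for hypoxia, -0.74 (SE 0.35) for the knockdown label against normoxia and 0.45 (SE 0.35) for the knockdown label against hypoxia, none past the threshold. Without knockdown replicate 2 these were -1.19, -1.36 and -0.18, and the first 2 were then past it. Without a filter on low counts, and with only the 6 libraries of the comparison, the hypoxia difference also passed (-1.19 and -1.18), as did the difference between the knockdown label and normoxia without the filter (-0.75).

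Ccn2, the connective tissue growth factor gene, is a relative of Ccn1 and a target of TGF-beta. It did not follow Ccn1. Its level was 223, 171 and 169 CPM in normoxia, 199.7, 273 and 259 in hypoxia, and 206, 236 and 271 under the knockdown label. Hypoxia replicate 1 and knockdown replicate 1 lay inside the normoxia range, and the others lay above it. The log2 differences were 0.38 (SE 0.15) and 0.34 (SE 0.15) against normoxia and -0.04 (SE 0.15) for the knockdown label against hypoxia, with none past the threshold.

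Per kilobase of exon, Ccn1 was the most abundant of the 10 in normoxia at 163 CPM per kb (range over libraries 128 to 188), followed by Ccn2 at 65.6 (59.1 to 77.8), Thbs1 at 60 (57.8 to 63.2) and Adamts1 at 48.8 (47.7 to 50.7). Ccn2 and Thbs1 overlapped, and the others of these 4 did not overlap their neighbours. Below them came Spon1 at 22.8, Spon2 at 13.5 (6.36 to 18.3), Adamts9 at 3.92 (2.12 to 6.66) and Tnc at 1.69 CPM per kb. Adamts4 at 0.56 and Thbs2 at 0.43 CPM per kb overlapped each other. In hypoxia Ccn2 at 85.2 CPM per kb (69.8 to 95.4) and Ccn1 at 71.4 (49.6 to 84.9) overlapped, as did Thbs1 at 33.2 and Adamts1 at 26.8, and Spon2 at 1.37 (0.70 to 2.09) had come down to the level of Tnc at 1.76 and Adamts9 at 1.92. In the knockdown-labelled group Adamts1 at 15.7 CPM per kb (13.7 to 18.7) lay below Spon1 at 22.6 (21.5 to 24.7), the reverse of normoxia, and Spon2 at 0.61 (0.40 to 0.93) overlapped Thbs2 at 0.47 (0.32 to 0.64). The lengths are those of all annotated exons together, which need not be the transcripts present in lung.

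Promoter sequences from RefSeq (GRCm38.p6) matched 5 of the 10 genes, 6 windows in all. No window was matched for Spon1, Spon2, Thbs1, Adamts4 or Ccn2. Of the matched genes only Adamts1 was past the threshold in hypoxia against normoxia. Shown are the 250 bases before the start of Adamts1, Adamts9 and Ccn1, whose log2 estimates in hypoxia were -0.87, -1.03 and -1.19, and of Thbs2, whose estimate was -0.18. Each is written 5′ to 3′ on the minus strand of its chromosome, at chr16:85803114-85803363, chr6:92943535-92943784, chr3:145649986-145650235 and chr17:14694263-14694512 in this order. Capitals mark matches, on either strand, to the TEAD motif GGAATG, the cAMP response half-site TGACG or the TATA motif TATAAA.
Adamts1: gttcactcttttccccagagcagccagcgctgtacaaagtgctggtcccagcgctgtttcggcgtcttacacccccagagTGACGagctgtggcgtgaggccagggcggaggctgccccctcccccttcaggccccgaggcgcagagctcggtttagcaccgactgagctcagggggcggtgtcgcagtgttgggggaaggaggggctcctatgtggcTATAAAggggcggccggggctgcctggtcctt
Adamts9: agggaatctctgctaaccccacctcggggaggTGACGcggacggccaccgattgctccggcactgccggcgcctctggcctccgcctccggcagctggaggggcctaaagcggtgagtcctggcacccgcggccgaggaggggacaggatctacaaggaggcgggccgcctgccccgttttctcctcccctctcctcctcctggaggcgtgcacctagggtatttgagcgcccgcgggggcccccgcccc
Ccn1: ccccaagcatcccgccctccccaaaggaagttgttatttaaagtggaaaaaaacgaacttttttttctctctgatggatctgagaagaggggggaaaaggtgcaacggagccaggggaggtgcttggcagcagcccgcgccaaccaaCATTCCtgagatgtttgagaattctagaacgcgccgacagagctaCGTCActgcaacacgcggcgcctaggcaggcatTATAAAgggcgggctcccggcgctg
Thbs2: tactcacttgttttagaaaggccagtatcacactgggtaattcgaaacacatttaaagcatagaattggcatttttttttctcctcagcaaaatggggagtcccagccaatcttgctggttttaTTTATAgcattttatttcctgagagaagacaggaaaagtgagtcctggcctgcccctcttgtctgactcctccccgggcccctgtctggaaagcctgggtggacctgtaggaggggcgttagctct
The cAMP half-site was found once in each of Adamts1, Adamts9 and Ccn1, the last on the opposite strand, and was in neither Thbs2 nor the 2 windows of Tnc. Among 32851 windows of this length, 17.8% hold it. The TEAD motif was found in Ccn1 alone, 98 to 103 bases before the start, and is in 12.6% of all windows. A TATA motif lay 27 to 32 bases before the start of Adamts1 and 20 to 25 bases before that of Ccn1, both abundant genes here, and elsewhere in Thbs2 and Tnc, with 12.4% of windows holding one. The HIF core ACGTG (16.6% of windows), the E-box CACGTG that contains it (6.02%), the AP-1 motif TGANTCA (6.75%) and the serum response CArG box (1.47%) were not in these windows, which says only that these letters are not in them. These are matches of letters and no evidence of binding.

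Immediate early genes, the rapid transcriptional response to stimuli and to tissue handling, were compared over the same libraries. Of 23 tested, 7 fell in hypoxia and none rose (edgeR, median log2 fold change -0.58, against -0.01 over all tested genes), and 8 fell under the knockdown label against normoxia (median -0.49). Dusp1, a MAP kinase phosphatase gene, fell by 1.83 on the log2 scale in hypoxia (adjusted p = 0.0045, held in all 9 fits without 1 library). Nr4a1 (-2.36, adjusted p = 0.017) lost its call without hypoxia replicate 3 (adjusted p = 0.074). Atf3 (-1.13) and Nr4a3 (-1.58) kept theirs in 7 and 3 of the 9 fits, with a highest edgeR adjusted p of 0.061 and 0.12. For the knockdown label against normoxia Dusp1, Nr4a2 and Nr4a3 held in all 9 fits and Nr4a1 in 5. None of the 23 passed between the knockdown label and hypoxia. The summed level of the list was 4488, 3179 and 2941 CPM in normoxia, 2119, 1720 and 2031 in hypoxia and 1674, 2483 and 2135 under the knockdown label. Within the groups this sum was highest in normoxia replicate 1, hypoxia replicate 1 and knockdown replicate 2, and lowest in normoxia replicate 3, hypoxia replicate 2 and knockdown replicate 1. Ccn1 was lowest in the same libraries, but was highest in normoxia replicate 2, hypoxia replicate 3 and knockdown replicate 2. Adamts9 was highest in normoxia replicate 1, hypoxia replicate 3 and knockdown replicate 1, and lowest in normoxia replicate 2, hypoxia replicate 1 and knockdown replicate 2. The part of tissue handling or of these transcription factors in the levels of the 10 genes was not tested.

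**Figure D4:**
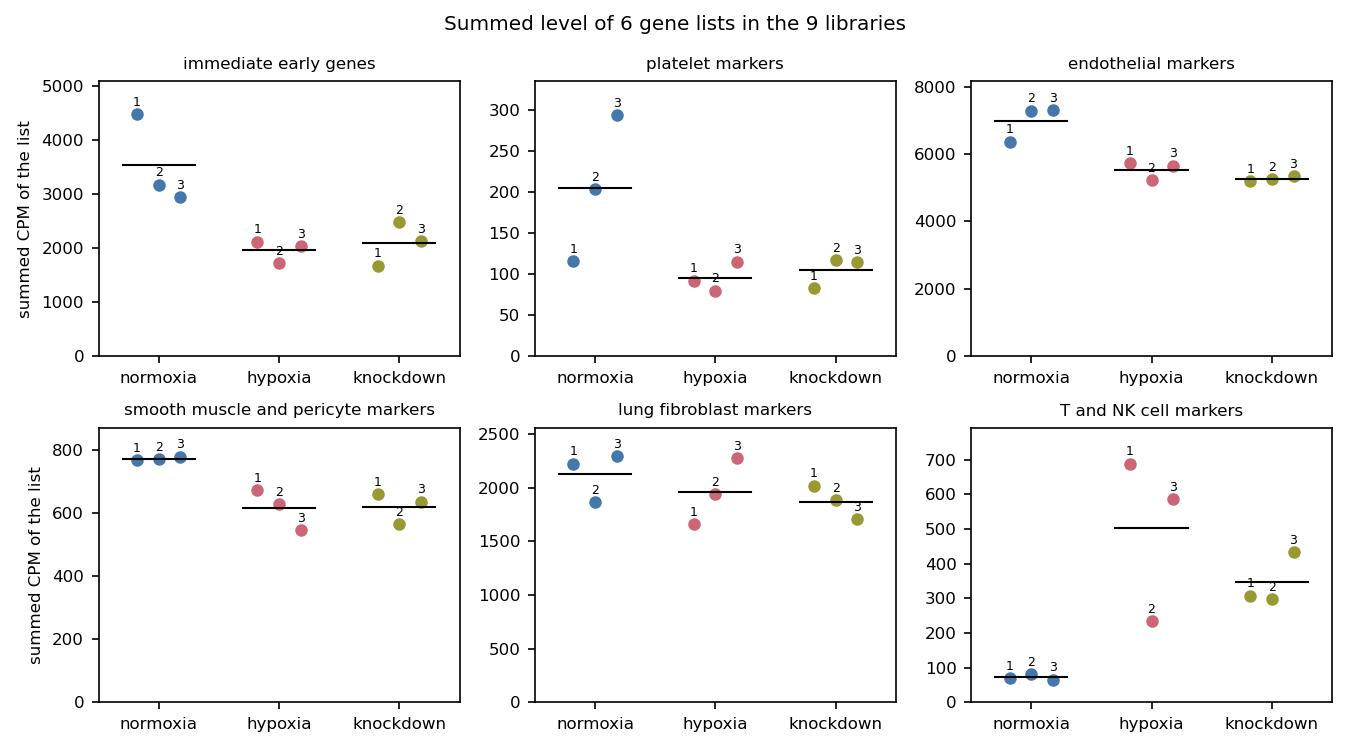
Summed CPM of 6 gene lists in each library, numbered by replicate, with bars at the group mean and axes from 0. Immediate early and endothelial sums are higher in every normoxia library than in any other, smooth muscle sums likewise, and the T and NK cell sum is lowest in normoxia.

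Cell types that make these proteins were compared by their markers. Among 12 endothelial markers 2 fell in hypoxia and 5 under the knockdown label against normoxia (edgeR), with medians of -0.27 and -0.36, and their sum was 6369 to 7307 CPM in normoxia, 5228 to 5719 in hypoxia and 5202 to 5341 under the knockdown label. Among 12 smooth muscle and pericyte markers 1 and 2 fell (medians -0.36 and -0.31), with sums of 769 to 781, 547 to 674 and 565 to 661 CPM. Among 12 fibroblast markers 2 and 1 fell (medians -0.08 and -0.08), with overlapping sums of 1866 to 2291, 1662 to 2271 and 1709 to 2018 CPM. No mesothelial marker passed in any comparison, 7 being tested. Of 9 macrophage markers 1 rose in hypoxia and 7 under the knockdown label against normoxia, with sums of 525 to 660, 750 to 836 and 788 to 1413 CPM, and 2 rose for the knockdown label against hypoxia. None of these markers was at 0 in all libraries. Calls of at most 4 markers per list and comparison were followed through the 9 fits without 1 library. In hypoxia C1qb held in all 9, Pdgfra in 8, Dpt in 7, Cldn5 in 6, and Vwf and Actg2 in 5. For the knockdown label against normoxia Cldn5, Cdh5, C1qa, C1qb and Adgre1 held in all 9, Ptprb in 8 and Vwf in 7. There Pdgfra held in 5, Actg2 and Acta2 in 4 and Chil3 in 2. Against hypoxia C1qb held in all 9 and C1qa in 3. The part of any of these cell types in the levels of the 10 genes was not tested.

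The rest of the ADAMTS family changed in both directions. Of 14 other tested ADAMTS proteases 1 rose and 1 fell in hypoxia, with a median of -0.09, and 2 rose and 3 fell under the knockdown label against normoxia, with a median of -0.22. None passed for the knockdown label against hypoxia. Adamts15, another versican-cutting enzyme, went from 150.5, 75.0 and 83.4 CPM in normoxia to 42.0, 42.5 and 42.2 in hypoxia and 44.4, 36.6 and 36.5 under the knockdown label. It fell by 1.29 on the log2 scale in hypoxia (SE 0.22, edgeR adjusted p = 0.0098). Its neighbour Adamts8 on chromosome 9 was at 27.4 CPM in hypoxia and 34.7 in normoxia (-0.34, SE 0.13, adjusted p = 0.21). Adamts14, which trims the ends of procollagen, rose from 3.24 ± 0.66 to 10.5 ± 3.6 CPM (1.70, SE 0.27, adjusted p = 0.0074) and stayed at 8.86 ± 1.2 under the knockdown label.

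Adamts17, for which a role in fibrillin matrix is known, was at 7.61 ± 2.8 CPM in normoxia, 3.45 ± 0.92 in hypoxia and 1.46 ± 0.33 under the knockdown label, and fell in the last against normoxia (-2.38, SE 0.36, adjusted p = 0.0022). Adamts6 rose there (1.08, SE 0.17, adjusted p = 0.0027). The calls of Adamts14, Adamts15, Adamts17 and Adamts6 held in each of the 9 fits without 1 library. Adamts5, the aggrecanase gene next to Adamts1 on chromosome 16 at 85856173 to 85901828 (GRCm38), stood at 29.1 ± 4.6, 20.9 ± 1.2 and 19.3 ± 3.7 CPM. Its difference was -0.48 (SE 0.16, adjusted p = 0.14) in hypoxia and -0.60 (SE 0.16, adjusted p = 0.044) for the knockdown label against normoxia. The latter call was not followed through the fits without 1 library. Among 7 ADAMTS-like genes, which lack the protease domain, Adamtsl4 fell in hypoxia (-0.69, SE 0.10, adjusted p = 0.0059) and under the knockdown label against normoxia (-0.74, adjusted p = 0.0012). Adamtsl2 fell in the latter (-0.74, adjusted p = 0.039), a call kept in 4 of 9 fits without 1 library, with a highest adjusted p of 0.15.

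**Figure D5:**
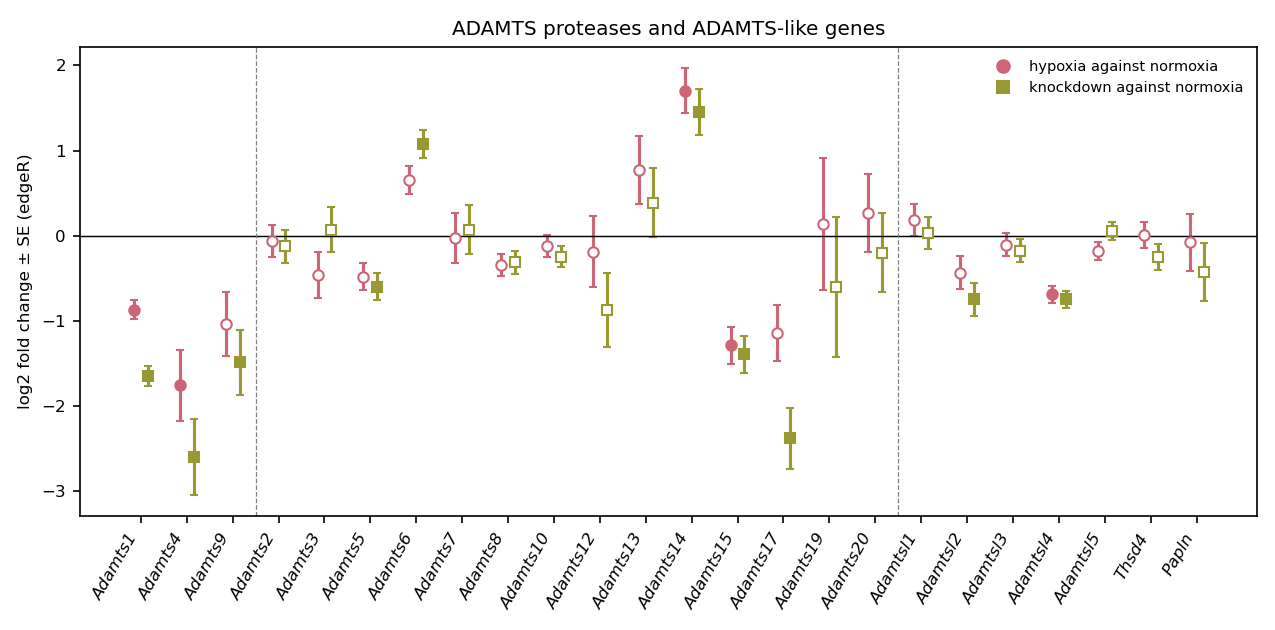
Log2 fold change with its standard error (edgeR) for the 3 ADAMTS genes described above, 14 other ADAMTS proteases and 7 ADAMTS-like genes, left to right between the dashed lines, with filled symbols past the 5% false discovery threshold. Both comparisons are with normoxia. Adamts14 is filled and higher in both, and Adamts1, Adamts4, Adamts15 and Adamtsl4 are filled and lower in both. For the knockdown label alone, Adamts6 is filled and higher, and Adamts9, Adamts5, Adamts17 and Adamtsl2 are filled and lower.

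Among other thrombospondin, spondin, CCN, tenascin and matricellular genes, only Tnxb, Postn and Spp1 were past the threshold in any comparison. Thbs3 was at 102 CPM in normoxia, 100.4 in hypoxia and 88.0 under the knockdown label, and none of 5 tested thrombospondin, SCO-spondin and R-spondin genes or 3 other CCN genes passed in any comparison. Thbs4 and Comp were among those too low to test, at or under 0.34 CPM as group means. Log2 estimates of the 5 tested genes in hypoxia ran from -1.14 to 0.37, so the lack of a call does not show that none changed. Among 13 tenascin and other matricellular genes, Tnxb, which encodes tenascin X, rose from 121 ± 4.6 to 198 ± 12.6 CPM in hypoxia (0.71, SE 0.11, edgeR adjusted p = 0.0067). Postn (-0.49, adjusted p = 0.049) and the osteopontin gene Spp1 (-1.55, adjusted p = 0.029) fell. Of these, Tnxb held in all 9 fits without 1 library, Spp1 in 5 and Postn in 2, with highest adjusted p of 0.042, 0.11 and 0.19. Tnxb also rose under the knockdown label against normoxia (0.54, adjusted p = 0.012), a call lost without normoxia replicate 3 (adjusted p = 0.056). None of the 13 passed for the knockdown label against hypoxia.

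Among 16 receptors of these proteins, 1 rose and 1 fell in hypoxia, and 1 rose and 3 fell under the knockdown label against normoxia. Cd36, which encodes a thrombospondin receptor of endothelium and macrophages, went from 1805 ± 118 to 1390 ± 101 and 1297 ± 81.3 CPM. It fell in hypoxia (-0.38, SE 0.09, edgeR adjusted p = 0.045, kept in 1 of 9 fits without 1 library with a highest adjusted p of 0.17) and under the knockdown label against normoxia (-0.48, adjusted p = 0.0093, kept in all 9). The integrin gene Itgb3 (-0.77, adjusted p = 0.0089, kept in all 9) also fell in that comparison. Itgb6 fell there too (-0.97, adjusted p = 0.017), a call lost without normoxia replicate 3 or knockdown replicate 1, with a highest adjusted p of 0.076. The leukocyte integrin gene Itgb2 rose in both groups against normoxia (1.06, adjusted p = 0.036, and 1.11, adjusted p = 0.018). These calls held in 3 and 5 of 9 fits without 1 library, with highest adjusted p of 0.13 and 0.070. The part of any leukocyte type in the level of Itgb2 was not tested. None of 6 protease inhibitor genes, the TIMP genes among them, and none of 5 tested hyaluronan and lectican genes, Vcan among them, passed in any comparison.

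Genes known as targets of YAP and TEAD, the pathway that drives Ccn1 and Ccn2, had both positive and negative log2 estimates in hypoxia, 10 of each. Of the 20, 3 passed the threshold as lower in hypoxia and none as higher, with a median of -0.02. Igfbp3 (-0.78, edgeR adjusted p = 0.017), Amotl2 (-0.55, adjusted p = 0.027) and Crim1 (-0.41, adjusted p = 0.019) were those 3, and they held in 7, 5 and 6 of the 9 fits without 1 library, with highest adjusted p of 0.083, 0.11 and 0.10. Under the knockdown label against normoxia 2 rose and 3 fell, with Axl higher (0.68, adjusted p = 0.0024) and Igfbp3 lower (-0.86, adjusted p = 0.0056), both in all 9 fits. There Nt5e was higher (0.51) and Amotl2 lower (-0.55), with calls kept in 3 and 6 of the 9 fits. Nuak2 was the 1 gene of the list to rise for the knockdown label against hypoxia (0.68, adjusted p = 0.027), kept in 2 of 9 fits without 1 library with a highest adjusted p of 0.12. Among 17 TGF-beta ligands, receptors and targets, Skil fell in hypoxia (-0.62, adjusted p = 0.012, kept in 6 of 9 with a highest adjusted p of 0.057). Tgfbi rose under the knockdown label against normoxia (0.86, adjusted p = 0.0014, kept in all 9) and against hypoxia (0.55, adjusted p = 0.047, kept in 1 of 9 with a highest adjusted p of 0.19).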

How the data were processed

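The authors deposited raw read counts, 1 whole number for each gene in each of 9 libraries. Per the labels' protocols, libraries were made from total RNA with a NEBNext Ultra kit. Build mm10 and the tools HISAT2, StringTie, TopHat, DESeq, limma and bcl2fastq are named, per the submitters' processing notes. How reads were counted, and whether by strand, is not given in the sources used here, so reads of antisense or overlapping genes may be mixed. Of 30388 gene identifiers shared with GENCODE M21 (GRCm38), 639 had the same position in the table, so positions and exon lengths were taken from GENCODE M21 by identifier.

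Counts were fitted with edgeR 4.0.16 in R 4.3.3: filterByExpr, TMM factors of 0.976 to 1.03, 1 coefficient per group over all 9 libraries and the quasi-likelihood F-test, with Benjamini-Hochberg adjustment over all 17578 tested genes at 0.05. The fit was tested on simulated data. Standard errors come from the F statistic. A count of 3 equals 0.166 to 0.196 CPM, which covers counting error only. Chi-square per degree of freedom between replicates was 12.9 to 25.7, so no library was a duplicate. The 10 genes, the 21 other lists (245 of 248 entries matched, 230 tested) and the tests were chosen with earlier results of these data known. Named genes were the 10, at most 4 called genes of a list in each comparison, and the 5 named genes (mean of 1 CPM or more) nearest in pattern to Spon2 and to the 2 other members with the widest range, Adamts4 and Adamts1, of which 1 is not reported here. Adamts5, Adamts8, Thbs3, Thbs4, Comp and Vcan were named after their values were seen.

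Alternatives were DESeq2 1.42.0 (size factors within edgeR, and its Wald test), limma-voom (limma 3.58.1), 2 other filters, only the 6 libraries of a comparison, a replicate block and leaving out each library.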

Additional observations from a re-analysis of the deposited data

How the results depend on the processing

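In hypoxia against normoxia 742 genes were called, and 1309 with the DESeq2 Wald test, 462 with limma-voom, 1293 with no low-count filter, 444 with only the 6 libraries of the comparison, 400 with the replicate block and 209 to 965 when 1 library was left out. Of the 10 genes, 4 were called there, 2 with the replicate block and 2 to 4 when 1 library was left out. For the knockdown label against hypoxia 301 genes were called, 567 with the DESeq2 Wald test, 644 with no low-count filter, 197 with the replicate block and 189 to 425 when 1 library was left out, and Adamts1 was the 1 member called in all of these. Without hypoxia replicate 2 that comparison had 182 higher and 243 lower genes, against 222 and 79 with it. For the knockdown label against normoxia 1446 were called, 936 with the replicate block and 715 to 1567 without 1 library. Over the 16 alternatives no member's difference that was past the threshold changed sign. Of 85 calls of other named genes, 44 held in each fit without 1 library, and none changed sign. The block gave fewer calls. Correlations between same-numbered libraries, in their deviations from the group means, ran from -0.423 to 0.274, with 2 of 9 pairs over 0.1. With so few libraries per group these correlations cannot decide whether the numbers pair the libraries. Depth limits Adamts4 and Thbs2, which had under 70 counts in every library.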
